A study of Homo sapiens with 12 samples.

Results

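The genes of the lysosome and of autophagy were chosen by symbol alone, from the genes that the RNA-seq count tables of QGP-1 and BON-1 cells list. The choice took every name that begins with ATP6V or ATP6AP (the proton pump of the lysosome), the cathepsins CTSA to CTSZ named as lysosomal proteases, the LAMP genes, the ATG genes, the MAP1LC3 and GABARAP families, and SQSTM1, TFEB, TFE3, MCOLN1, NPC1 and NPC2. Hyphenated names and pseudogene names that end in P and a number were left out. The ATP6AP and LAMP genes were kept although most of their names end that way, since the choice names them; dropping those names would leave 67 genes. This gave 73 of 28008 listed genes, of which 44 are lysosomal, 27 belong to autophagy and 2 (TFEB and TFE3) are transcription factors.

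QGP-1 and BON-1 are established cell lines from human pancreatic neuroendocrine tumors (pNETs). Both carried tet-MUC1shRNA, a doxycycline-inducible hairpin against MUC1 in a lentiviral vector selected with puromycin, and were cultured for 7 days with DMSO vehicle or with 500 ng/mL doxycycline (DOX), with 3 libraries in each of the 4 groups. The comparison within a line asks what changes when MUC1-C, the transmembrane subunit of the MUC1 protein, is silenced. Every library used here carries the hairpin, so the effect of DOX itself and that of the knockdown cannot be told apart, and the transduced cells of each line stand for that line only. QGP-1 cells were grown in RPMI medium and BON-1 cells in DMEM/F-12, so line, medium and sequencing depth cannot be told apart either.

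MUC1 itself had 274, 251 and 281 counts with vehicle and 34, 41 and 32 with DOX in QGP-1 cells, and 580, 467 and 281 against 23, 51 and 78 in BON-1 cells, so the targeted gene was lower in every DOX library. Total counts ran from 38224144 to 50525926 per QGP-1 library and from 15981954 to 28484324 per BON-1 library, and the 73 genes took 0.448% to 0.588% of them. Of 9 neuroendocrine markers, 1 (NEUROD1) had no count in QGP-1 cells, and the summed level of the list was 4360 to 5080 CPM (counts scaled to a common library size) with vehicle and 5160 to 5840 with DOX there, and 11500 to 14900 against 9200 to 9660 in BON-1 cells. The lower BON-1 sum came mainly from CHGA (mean 8100 CPM with vehicle and 2940 with DOX), while SCG2 (2700 and 3690) and SCG3 (929 and 1120) were higher with DOX. The 5 macrophage markers, the cell type richest in lysosomes among those checked, summed to 0.656 to 1.49 CPM with vehicle and 1.28 to 2.18 with DOX in QGP-1 cells, and to 24 to 26.7 against 49 to 53.8 in BON-1 cells. That BON-1 sum was nearly all CD68, itself a lysosomal membrane gene (mean 25.3 CPM with vehicle and 50.6 with DOX), while CD163 had no count and CD14 and PTPRC had means below 0.1 CPM. The summed acinar markers came to 82.6 to 151 CPM with vehicle and 28.9 to 40 with DOX in QGP-1 cells and to 36 to 45.9 against 19.6 to 27 in BON-1 cells, nearly all PRSS1 (means 121 and 34 in QGP-1, 38.6 and 23 in BON-1 cells), and fibroblast and endothelial markers summed to at most 3.66 CPM. Ductal markers summed to 78.2 to 99.3 CPM with vehicle and 73.2 to 90.1 with DOX in QGP-1 cells, and to 286 to 334 against 408 to 513 in BON-1 cells. The part of these markers in the results that follow was not tested.

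Lysosomes digest material delivered by endocytosis and by autophagy. The V-ATPase pumps protons into the lumen through its membrane part (V0), driven by ATP hydrolysis in its cytosolic part (V1); acid-activated cathepsins cut proteins, LAMP proteins line the membrane, MCOLN1 releases calcium, and NPC1 with NPC2 moves cholesterol out. In autophagy, ATG proteins build a double membrane around cargo and attach the ATG8 proteins (LC3 and GABARAP families) to its lipids, and SQSTM1 (p62) ties ubiquitinated cargo to them before it is degraded itself. TFEB and TFE3 switch on many of these genes by binding the CLEAR element, a sequence built around the E-box CACGTG, to which MYC and other factors of its class also bind.

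The start sites of members that carry this E-box extended to GTCACGTG are shown because they tie the transcription factors among the members to the genes they are known for. RefSeq promoters on GRCh38.p14 (250 bases before to 50 after the start site) matched 56 of the 73 members. These 56 members have 70 promoters there. On either strand, CACGTG occurred in 12 of the 70, beside 7.26% of 35116 promoters of all genes. GTCACGTG, which contains CACGTG, occurred in 9 of the 70, beside 2.4% of all promoters. Counted per gene, 11 of the 56 members (19.6%) held CACGTG and 9 (16.1%) GTCACGTG in at least 1 promoter. These shares per gene are not comparable with the shares per promoter. A match of letters is no evidence of binding, and the members sit in this window only by their RefSeq start. The stretches below run 5′ to 3′ toward the gene and end before its start site, with each CACGTG in capitals. They lie at chr13:113297027-113297236, plus strand (LAMP1), chr19:7522563-7522623, plus strand (MCOLN1), chr11:1763949-1763994, minus strand (CTSD), chr20:45891273-45891334, plus strand (CTSA), chr1:43974883-43974946, plus strand (ATP6V0B), chr16:67481191-67481236, minus strand (ATP6V0D1), chr9:114587691-114587736, plus strand (ATP6V1G1), chr14:55411831-55411871, minus strand (ATG14) and chr3:112561963-112562000, minus strand (ATG3).
LAMP1: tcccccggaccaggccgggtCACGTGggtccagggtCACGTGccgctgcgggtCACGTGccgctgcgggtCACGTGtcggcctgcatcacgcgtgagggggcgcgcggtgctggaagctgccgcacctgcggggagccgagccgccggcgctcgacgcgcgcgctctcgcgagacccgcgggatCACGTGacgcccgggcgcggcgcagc
MCOLN1: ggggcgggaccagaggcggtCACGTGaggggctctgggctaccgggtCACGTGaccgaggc
CTSD: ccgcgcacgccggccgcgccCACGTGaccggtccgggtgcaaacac
CTSA: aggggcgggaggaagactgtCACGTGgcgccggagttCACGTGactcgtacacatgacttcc
ATP6V0B: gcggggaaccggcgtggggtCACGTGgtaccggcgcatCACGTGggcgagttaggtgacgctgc
ATP6V0D1: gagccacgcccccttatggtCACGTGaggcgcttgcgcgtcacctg
ATP6V1G1: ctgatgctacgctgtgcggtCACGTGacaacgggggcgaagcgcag
ATG14: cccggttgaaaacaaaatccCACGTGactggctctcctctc
ATG3: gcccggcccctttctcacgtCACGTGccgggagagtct

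LAMP1 holds 5 copies in the stretch shown and MCOLN1, CTSA and ATP6V0B hold 2 each. Of these 9 genes, 2 were called lower, 1 higher and 6 neither way with DOX in QGP-1 cells. In BON-1 cells 1 was lower, 3 higher and 5 neither way. Of all genes tested, 17.7% were lower and 17.3% higher in QGP-1, and 18.3% and 17% in BON-1 cells. SQSTM1, MAP1LC3B and TFEB, whose values follow, have no CACGTG in this window.

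A gene was called when the adjusted p of edgeR's quasi-likelihood test was below 0.05, with Benjamini-Hochberg adjustment over all genes tested in that line. After the filter on low counts, 67 members were tested in each line. In QGP-1 cells, 12 members (17.9% of those tested) were lower with DOX and 10 (14.9%) were higher, beside 17.7% lower and 17.3% higher among all 15089 genes tested. In BON-1 cells, 14 members (20.9%) were lower and 16 (23.9%) higher, beside 18.3% and 17% of 14625 genes. The members as a whole were therefore called about as often as other genes in QGP-1 cells, and somewhat more often toward higher levels in BON-1 cells. In these bulk samples, fewer cells that express a gene and less RNA per cell cannot be told apart.

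In BON-1 cells, 9 of 40 lysosomal genes were lower (22.5%) and 7 higher (17.5%), while 4 of 25 autophagy genes were lower (16%) and 9 higher (36%). In QGP-1 cells, 7 lysosomal genes were lower and 7 higher of 40, and 4 autophagy genes were lower and 3 higher of 25. The median log2 fold change of the lysosomal genes, relative to the median over all tested genes, was -0.01 in QGP-1 and 0.01 in BON-1 cells, and that of the autophagy genes was 0.07 and 0.13. Without 1 library the autophagy median ran from 0.022 (without DOX replicate 1) to 0.13 (without DOX replicate 2) in QGP-1 cells, and from 0.082 (without DOX replicate 3) to 0.18 (without DOX replicate 2) in BON-1 cells, where it was 0.057 with both lines in 1 fit and 0.062 without a filter. These counts and medians describe the lists, and no test of the difference between the classes was made. Leaving out the first DOX library of QGP-1 cells raised the autophagy genes called higher there from 3 to 6.

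**Figure D1:**
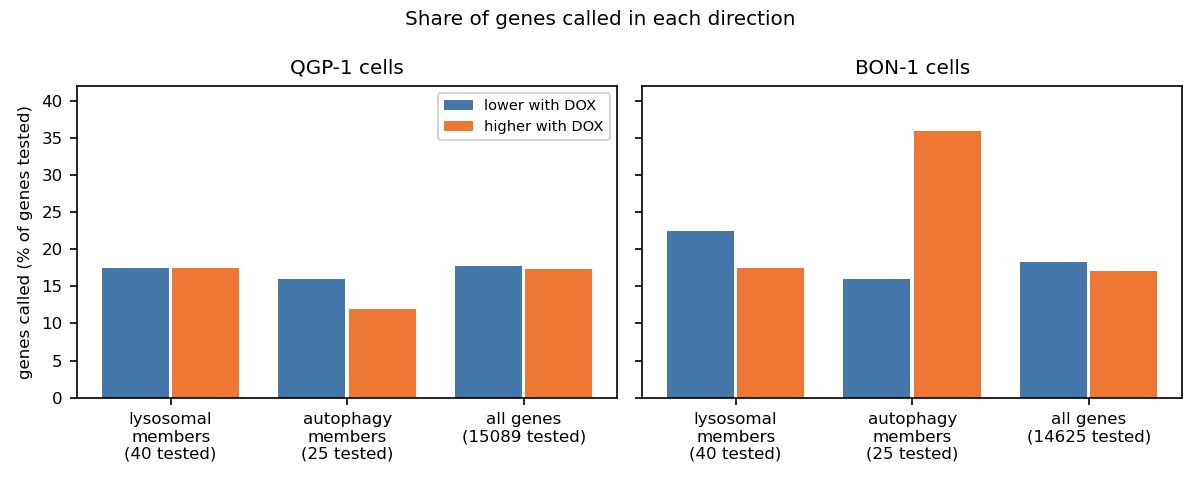
Share of genes called lower (blue) and higher (orange) with DOX, in percent of genes tested, for lysosomal members, autophagy members and all genes in each line. The tallest bar is that of the BON-1 autophagy members called higher, 36% beside 17% of all genes.

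The autophagy receptor SQSTM1 rose in both lines, more in BON-1 cells. Its level was 203, 202 and 184 CPM in the vehicle libraries and 267, 255 and 249 in the DOX libraries of QGP-1 cells (log2 fold change 0.39 ± 0.07 SE, adjusted p = 0.000559). In BON-1 cells it went from 325, 285 and 302 to 557, 599 and 539 CPM, a 1.86-fold rise (log2 fold change 0.89 ± 0.08 SE, adjusted p = 6.7e-10). Every DOX library lay above every vehicle library of its line, and the difference in response between the lines passed its own test (0.52 ± 0.11 SE, adjusted p = 0.00132). SQSTM1 lies at chr5:179806398-179838078, plus strand (GENCODE v44, GRCh38), where MGAT4B and MRNIP overlap it on the other strand, and the strand setting of the authors' counting is not given in the sources used here.

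Among the ATG8 genes, whose proteins sit on the autophagosome membrane, MAP1LC3B fell in both lines and GABARAPL2 fell in QGP-1 cells. MAP1LC3A, GABARAP and GABARAPL1 were called higher in 1 line each. For these 3 the difference between the lines was not called (adjusted p = 0.0751, 0.485 and 0.845, edgeR interaction test). MAP1LC3B, the LC3 gene most used as an autophagosome marker, stood at 246, 238 and 257 CPM with vehicle and 189, 168 and 179.9 with DOX in QGP-1 cells (log2 fold change -0.47 ± 0.07 SE, adjusted p = 0.000158). The BON-1 libraries gave 131, 124 and 122 against 72.1, 77.9 and 78.2 CPM (log2 fold change -0.73 ± 0.08 SE, adjusted p = 3.49e-08), and in neither line did the groups overlap. Its near-copy MAP1LC3B2 was low, with group means below 3 CPM, and was not called. SQSTM1 and MAP1LC3B, whose proteins bind each other, thus moved in opposite directions at the RNA level in both lines. MAP1LC3A rose in BON-1 cells from 4.65, 4.70 and 3.22 to 7.89, 7.96 and 6.31 CPM (log2 fold change 0.80 ± 0.21 SE, adjusted p = 0.00363) and was 0.17 ± 0.13 SE on the log2 scale, not called, in QGP-1 cells.

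GABARAP, whose protein acts late in autophagosome maturation, varied widely between the DOX libraries of QGP-1 cells. It read 779, 823 and 927 CPM with vehicle and 1146, 707 and 818 with DOX there, so the DOX libraries lay on both sides of the vehicle libraries, and it was not called (log2 fold change 0.08 ± 0.13 SE, adjusted p = 0.682). Without the first DOX library its QGP-1 fold change turned negative (log2 fold change -0.14, adjusted p = 0.24). BON-1 levels of 299.7, 229 and 256 and 311, 298 and 337 CPM gave a call (log2 fold change 0.27 ± 0.09 SE, adjusted p = 0.0159), although 1 DOX library lay below 1 vehicle library, and the call was lost without vehicle replicate 2 or 3 or the third DOX library (log2 fold change 0.18 to 0.38 when 1 library was left out). GABARAPL1 rose in QGP-1 cells from 48.3, 47.4 and 50.6 to 64.1, 56.5 and 60.1 CPM (log2 fold change 0.31 ± 0.08 SE, adjusted p = 0.00795) and was not called in BON-1 cells at 15.7, 14.4 and 14.2 against 17.3, 19.1 and 16.0 CPM (log2 fold change 0.24 ± 0.13 SE, adjusted p = 0.157). GABARAPL2 fell in QGP-1 cells by 0.28 on the log2 scale and was 0.12, not called, in BON-1 cells, and in QGP-1 cells it no longer passed when leaving out vehicle replicate 3 (adjusted p = 0.0676, edgeR) or DOX replicate 2 (adjusted p = 0.0979, edgeR).

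**Figure D2:**
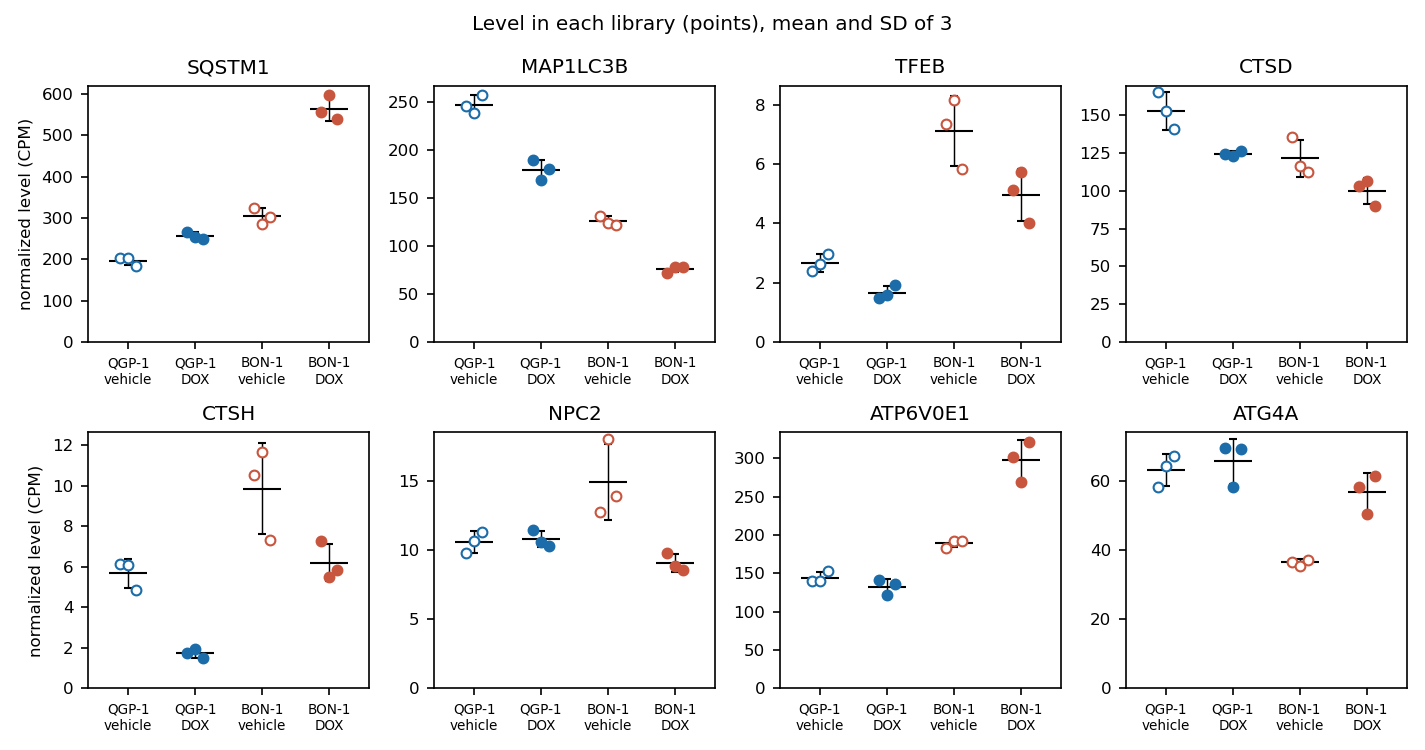
Level of 8 members in each library in CPM (y axis, from 0), by line and treatment. Open points are vehicle and filled points DOX libraries, and the black bars give the mean and SD of 3; SQSTM1 lies higher and MAP1LC3B lower with DOX in both lines, while ATP6V0E1 and ATG4A part only in BON-1 cells.

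The conjugation genes attach ATG8 proteins to lipid. Of 11 tested in the fit of both lines, 3 differed in response between the lines, all of them ATG4 genes (27.3%, beside 16.7% of all genes), and ATG7, ATG5 and ATG12 did not pass that test (adjusted p = 0.283, 0.44 and 0.13, edgeR). ATG7, the enzyme that activates both ubiquitin-like systems, fell in both lines, by 0.38 in QGP-1 and 0.68 in BON-1 cells on the log2 scale. ATG5, a part of the complex that finishes lipidation, went from 63.6, 60.4 and 68.8 to 49.0, 53.9 and 52.9 CPM in QGP-1 cells (log2 fold change -0.31 ± 0.08 SE, adjusted p = 0.00855), with no overlap between groups. In BON-1 cells ATG5 stood at 50.1, 62.8 and 62.2 with vehicle and 57.5, 48.4 and 51.3 CPM with DOX and was not called (log2 fold change -0.15 ± 0.10 SE, adjusted p = 0.228). ATG12, which is joined to ATG5, read 65.9, 74.0 and 73.3 and 95.6, 94.4 and 98.3 CPM in BON-1 cells, a rise with no overlap (log2 fold change 0.44 ± 0.08 SE, adjusted p = 0.000106). Its QGP-1 levels of 75.1, 79.8 and 96.4 and 92.9, 85.8 and 102 CPM overlapped and gave no call (log2 fold change 0.16 ± 0.10 SE, adjusted p = 0.223).

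The ATG4 proteases, which trim ATG8 proteins before use and free them afterwards, included 3 genes of 4 whose response differed between the lines by the edgeR interaction test (ATG4A, ATG4B and ATG4C). The ATG4C difference (0.58 ± 0.20 SE, adjusted p = 0.0441) was lost with a replicate block (adjusted p = 0.0608, edgeR), with library-size scaling (adjusted p = 0.0814, edgeR) and in 8 of 12 fits without 1 library, and the ATG4B difference in 3 of 12 (without QGP-1 vehicle replicate 3, QGP-1 DOX replicate 2 or BON-1 vehicle replicate 3). ATG4A rose in BON-1 cells from 36.7, 35.5 and 37.2 to 58.2, 50.6 and 61.6 CPM (log2 fold change 0.64 ± 0.09 SE, adjusted p = 4.84e-06). In QGP-1 cells its levels of 58.2, 64.3 and 67.2 and 69.8, 58.2 and 69.3 CPM overlapped (log2 fold change 0.06 ± 0.09 SE, adjusted p = 0.665). ATG4C followed the same pattern, with 0.52 ± 0.17 SE in BON-1 and -0.05 ± 0.11 SE, not called, in QGP-1 cells. ATG4B went the other way, called higher in QGP-1 cells (0.34 ± 0.10 SE) and at -0.15 ± 0.10 SE, not called, in BON-1 cells. The remaining conjugation genes called were ATG3, the lipid-transfer enzyme (log2 fold change 0.29), and ATG16L1, the scaffold of the ATG12-ATG5 complex (0.32), both higher in BON-1 cells. Within a line, the ATG16L1 call was lost in 4 of 6 fits without 1 library (vehicle replicate 1 or 2, DOX replicate 1 or 2), the BON-1 call of ATG4C in 3 (vehicle replicate 1 or 3, DOX replicate 3) and the QGP-1 call of ATG4B in 3 (vehicle replicate 2 or 3, DOX replicate 2).

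Of the genes for initiation and lipid supply, 6 were tested in QGP-1 cells and 0 were called there by edgeR, at log2 fold changes from -0.14 to 0.39 (0 lower and 2 higher at an unadjusted p below 0.05, and 1 higher by DESeq2). In BON-1 cells, ATG14, which directs the lipid kinase complex to autophagosome formation sites, rose (0.46 ± 0.11 SE), and 2 genes fell: ATG101, part of the initiating kinase complex (-0.53 ± 0.19 SE), and ATG9A, the lipid scramblase of the seed vesicles (-0.22 ± 0.08 SE). These calls stand beside 17.7% lower and 17.3% higher of all genes in QGP-1, and 18.3% and 17% in BON-1 cells. In QGP-1 cells ATG14 was at 0.39 ± 0.15 SE, not called (adjusted p = 0.0558, edgeR). Its difference between the lines was 0.09 and not called (adjusted p = 0.809, edgeR interaction test). By the interaction test, 0 of the 7 genes of this list differed in response, beside 16.7% of all genes. The ATG101 call was lost with DESeq2 and in 4 of the 6 fits without 1 library, and the ATG9A call with DESeq2 and in 2 of the 6.

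TFEB, a transcription factor of this gene network, fell in both lines, close to the threshold. Its level was 2.39, 2.64 and 2.97 CPM with vehicle and 1.49, 1.57 and 1.91 with DOX in QGP-1 cells (log2 fold change -0.69 ± 0.24 SE, adjusted p = 0.0362). In BON-1 cells it was 7.35, 8.16 and 5.83 against 5.13, 5.72 and 4.02 CPM (log2 fold change -0.53 ± 0.21 SE, adjusted p = 0.0476). The groups did not overlap in either line, but the call held in 2 of 6 fits without 1 library in each. In QGP-1 cells it was lost without vehicle replicate 2 or 3 or DOX replicate 1 or 2 (log2 fold changes from -0.80 to -0.60 over the 6 fits), and in BON-1 cells without vehicle replicate 1 or 2 or DOX replicate 1 or 3 (-0.66 to -0.41), as well as with DESeq2 and with both lines in 1 fit. TFE3, its relative, read 25.3, 24.6 and 25.0 and 32.8, 27.3 and 24.5 CPM in QGP-1 cells, with overlap and no call (log2 fold change 0.18 ± 0.11 SE, adjusted p = 0.226). TFE3 levels of 18.3, 21.2 and 20.6 and 19.7, 16.1 and 15.9 CPM in BON-1 cells also overlapped (log2 fold change -0.22 ± 0.13 SE, adjusted p = 0.193). These are RNA levels, while both factors are known to be controlled largely by phosphorylation and entry into the nucleus.

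The V-ATPase was not moved as a unit. Of 22 subunit and accessory genes tested, 3 were lower and 4 higher in QGP-1 cells, and 2 lower and 7 higher in BON-1 cells, beside 17.7% lower and 17.3% higher of all genes in QGP-1 and 18.3% and 17% in BON-1 cells. ATP6V1A (the catalytic subunit) and ATP6V0C (the proton-carrying ring) were not called in either line, at log2 fold changes from -0.09 to 0.03. In the V1 part, ATP6V1D, a subunit of the central stalk, fell in both lines (-0.29 and -0.31), and ATP6V1B2 (0.33), ATP6V1C1 (0.27), ATP6V1E1 (0.22) and ATP6V1G1 (0.31) rose in BON-1 cells. The ATP6V1D call in QGP-1 cells was lost without DOX replicate 2 (log2 fold change -0.24, adjusted p = 0.0771). ATP6V1E1 kept its call in 1 of 6 fits without 1 library, ATP6V1C1 and ATP6V1G1 in 4.

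Larger fold changes came from subunits with restricted expression and few counts. ATP6V1G2, a form of the G subunit known from neurons, rose in QGP-1 cells from 1.39, 2.29 and 1.47 to 5.91, 4.31 and 4.11 CPM (log2 fold change 1.48 ± 0.24 SE, adjusted p = 0.000369). It also rose in BON-1 cells, where its level of 0.497, 0.532 and 0.667 CPM went to 1.86, 1.61 and 1.68 (log2 fold change 1.61 ± 0.44 SE, adjusted p = 0.00554), on 14, 12 and 12 counts with vehicle and 29, 31 and 33 with DOX. The gene lies at chr6:31544444-31548427, minus strand, inside a listed readthrough gene with DDX39B, and reads of the 2 may have been counted together. ATP6V1C2, a tissue-restricted C subunit, read 3.93, 4.54 and 3.01 and 6.90, 8.72 and 8.50 CPM in QGP-1 cells, a 2.10-fold rise with no overlap (log2 fold change 1.07 ± 0.18 SE, adjusted p = 0.000391). Its BON-1 levels of 1.42, 0.488 and 0.389 and 1.35, 1.66 and 0.662 CPM overlapped and were not called (log2 fold change 0.61 ± 0.51 SE, adjusted p = 0.376).

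In the V0 part, ATP6V0E1, a small membrane subunit, parted the lines most clearly. Its BON-1 level rose from 183, 193 and 193 to 302, 269 and 321 CPM (log2 fold change 0.65 ± 0.08 SE, adjusted p = 1.99e-07), while QGP-1 levels of 140.1, 139.6 and 153 and 141, 122 and 136 CPM overlapped (log2 fold change -0.12 ± 0.07 SE, adjusted p = 0.227). Its paralog ATP6V0E2 was lower in BON-1 cells (-0.35), a call that was lost without vehicle replicate 1 (log2 fold change -0.25, adjusted p = 0.147). ATP6V0A1, a subunit of the proton channel, rose in both lines (0.39 and 0.32), ATP6V0A2 rose in QGP-1 cells (0.23), and ATP6V0B fell in QGP-1 cells (-0.49). ATP6V0A1 no longer passed in BON-1 cells when vehicle replicate 3 was left out, nor did ATP6V0A2 without QGP-1 vehicle replicate 2, DOX replicate 2 or DOX replicate 3. Of the accessory genes, ATP6AP2, also known as the prorenin receptor, fell in QGP-1 cells (-0.36) and was 0.05, not called, in BON-1 cells. ATP6V0E1, ATP6V1E1, ATP6V1G1 and ATP6V0C have 3 or more listed pseudogenes each, whose reads may be shared with them.

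Of the cathepsins, 3 of 12 tested fell (25%, beside 17.7% of all genes) and 2 rose (16.7%, beside 17.3%) in QGP-1 cells. In BON-1 cells 4 of 11 fell (36.4%, beside 18.3%) and 0 rose by edgeR, beside 17% of all genes (also 0 at an unadjusted p below 0.05 and by DESeq2). CTSH, an aminopeptidase, had the largest fall of all members in QGP-1 cells, from 6.11, 6.06 and 4.86 to 1.76, 1.95 and 1.51 CPM, 0.307 of the vehicle level (log2 fold change -1.70 ± 0.20 SE, adjusted p = 2.4e-05). In BON-1 cells it fell from 10.5, 11.7 and 7.33 to 7.25, 5.51 and 5.85 CPM (log2 fold change -0.68 ± 0.19 SE, adjusted p = 0.00678), a call that was lost without vehicle replicate 2 (log2 fold change -0.55, adjusted p = 0.0619). CTSD, the main aspartic protease of the lysosome, went from 166, 153 and 141 to 124, 123 and 127 CPM in QGP-1 cells (log2 fold change -0.30 ± 0.07 SE, adjusted p = 0.00556). Its BON-1 levels were 136, 117 and 113 and 103, 106 and 90.3 CPM (log2 fold change -0.29 ± 0.09 SE, adjusted p = 0.0102), and the BON-1 call was lost without vehicle replicate 1 (log2 fold change -0.20, adjusted p = 0.085). In each line the CTSH and CTSD groups did not overlap.

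CTSB, a cysteine protease, stood at 98.1, 89.2 and 87.5 CPM with vehicle and 72.1, 74.0 and 70.5 with DOX in BON-1 cells (log2 fold change -0.34 ± 0.08 SE, adjusted p = 0.00145). Its QGP-1 levels of 46.8, 39.4 and 41.2 and 42.3, 38.4 and 36.8 CPM overlapped (log2 fold change -0.12 ± 0.09 SE, adjusted p = 0.358). For CTSB the difference between the lines was not called (-0.22, adjusted p = 0.249, edgeR interaction test). The closely related CTSL and CTSV each fell in 1 line and not the other. CTSL read 25.6, 23.0 and 29.6 and 19.5, 17.4 and 20.9 CPM in QGP-1 cells (log2 fold change -0.44 ± 0.11 SE, adjusted p = 0.00753) and 20.2, 16.9 and 15.7 and 20.5, 19.9 and 20.1 CPM in BON-1 cells (log2 fold change 0.19 ± 0.13 SE, adjusted p = 0.251). CTSL has 6 listed pseudogenes, whose reads may be shared with it. CTSV fell in BON-1 cells from 15.6, 13.3 and 14.2 to 7.06, 9.20 and 9.01 CPM (log2 fold change -0.77 ± 0.16 SE, adjusted p = 0.000329), with QGP-1 levels of 3.70, 4.07 and 4.76 and 3.42, 4.77 and 4.51 CPM (log2 fold change 0.01 ± 0.19 SE, adjusted p = 0.968). CTSK, best known from osteoclasts, rose in QGP-1 cells (0.59), as did CTSA, a carboxypeptidase that also protects other lysosomal enzymes (0.20), whose call held in 2 of 6 fits without 1 library.

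LAMP1 and LAMP2, the main glycoproteins of the lysosomal membrane, were not called in either line. LAMP1 read 213, 196 and 193 CPM with vehicle and 208, 217 and 221 with DOX in QGP-1 cells (log2 fold change 0.11 ± 0.07 SE, adjusted p = 0.244), and 217, 191 and 178 and 214, 216 and 222 in BON-1 cells (log2 fold change 0.15 ± 0.08 SE, adjusted p = 0.133). LAMP2 gave 248, 225 and 267 and 253, 249 and 276 CPM in QGP-1 cells (log2 fold change 0.07 ± 0.08 SE, adjusted p = 0.493), and 143, 156 and 151 and 154, 138 and 168 in BON-1 cells (log2 fold change 0.03 ± 0.08 SE, adjusted p = 0.796). All 4 comparisons overlapped between groups. The family members with restricted expression behaved differently. LAMP3, also called DC-LAMP from its use in dendritic cells, fell from 12.4, 9.0 and 12 to 6.05, 6.13 and 5.69 CPM in QGP-1 cells (log2 fold change -0.90 ± 0.14 SE, adjusted p = 0.000322). In BON-1 cells LAMP3 fell from 6.32, 7.94 and 5.72 to 3.40, 4.47 and 2.14 CPM (log2 fold change -1.0 ± 0.24 SE, adjusted p = 0.00191), to 0.50 of the vehicle level. LAMP5, known from neurons, had at most 2 counts in any QGP-1 library and fell in BON-1 cells from 18.1, 17.3 and 18.8 to 12.3, 12.8 and 8.35 CPM (log2 fold change -0.69 ± 0.15 SE, adjusted p = 0.000665).

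The cholesterol exporters NPC1 and NPC2, which hand cholesterol from one to the other, were each called in a different line. By the edgeR interaction test the response differed between the lines for NPC2 (adjusted p = 0.0132). For NPC1 the difference was not called (-0.24, adjusted p = 0.202). NPC1, the membrane protein, rose in QGP-1 cells from 65.2, 65.5 and 56.5 to 78.0, 75.4 and 73.5 CPM (log2 fold change 0.28 ± 0.08 SE, adjusted p = 0.014), and its BON-1 levels of 37.2, 36.4 and 41.5 and 38.4, 36.9 and 41.7 overlapped (log2 fold change 0.03 ± 0.10 SE, adjusted p = 0.856). NPC2, the soluble protein, fell in BON-1 cells from 12.8, 18.0 and 13.9 to 9.82, 8.89 and 8.55 CPM (log2 fold change -0.72 ± 0.16 SE, adjusted p = 0.000767), while QGP-1 levels of 9.78, 10.6 and 11.3 and 11.4, 10.6 and 10.3 overlapped (log2 fold change 0.03 ± 0.12 SE, adjusted p = 0.879). The calcium channel MCOLN1 was not called in either line. It read 33.7, 29.7 and 26.9 and 28.7, 29.4 and 29.5 CPM in QGP-1 cells (log2 fold change -0.04 ± 0.10 SE, adjusted p = 0.773), and 16.8, 15.4 and 15.7 and 13.4, 16.5 and 9.82 in BON-1 cells (log2 fold change -0.27 ± 0.16 SE, adjusted p = 0.184).

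**Figure D3:**
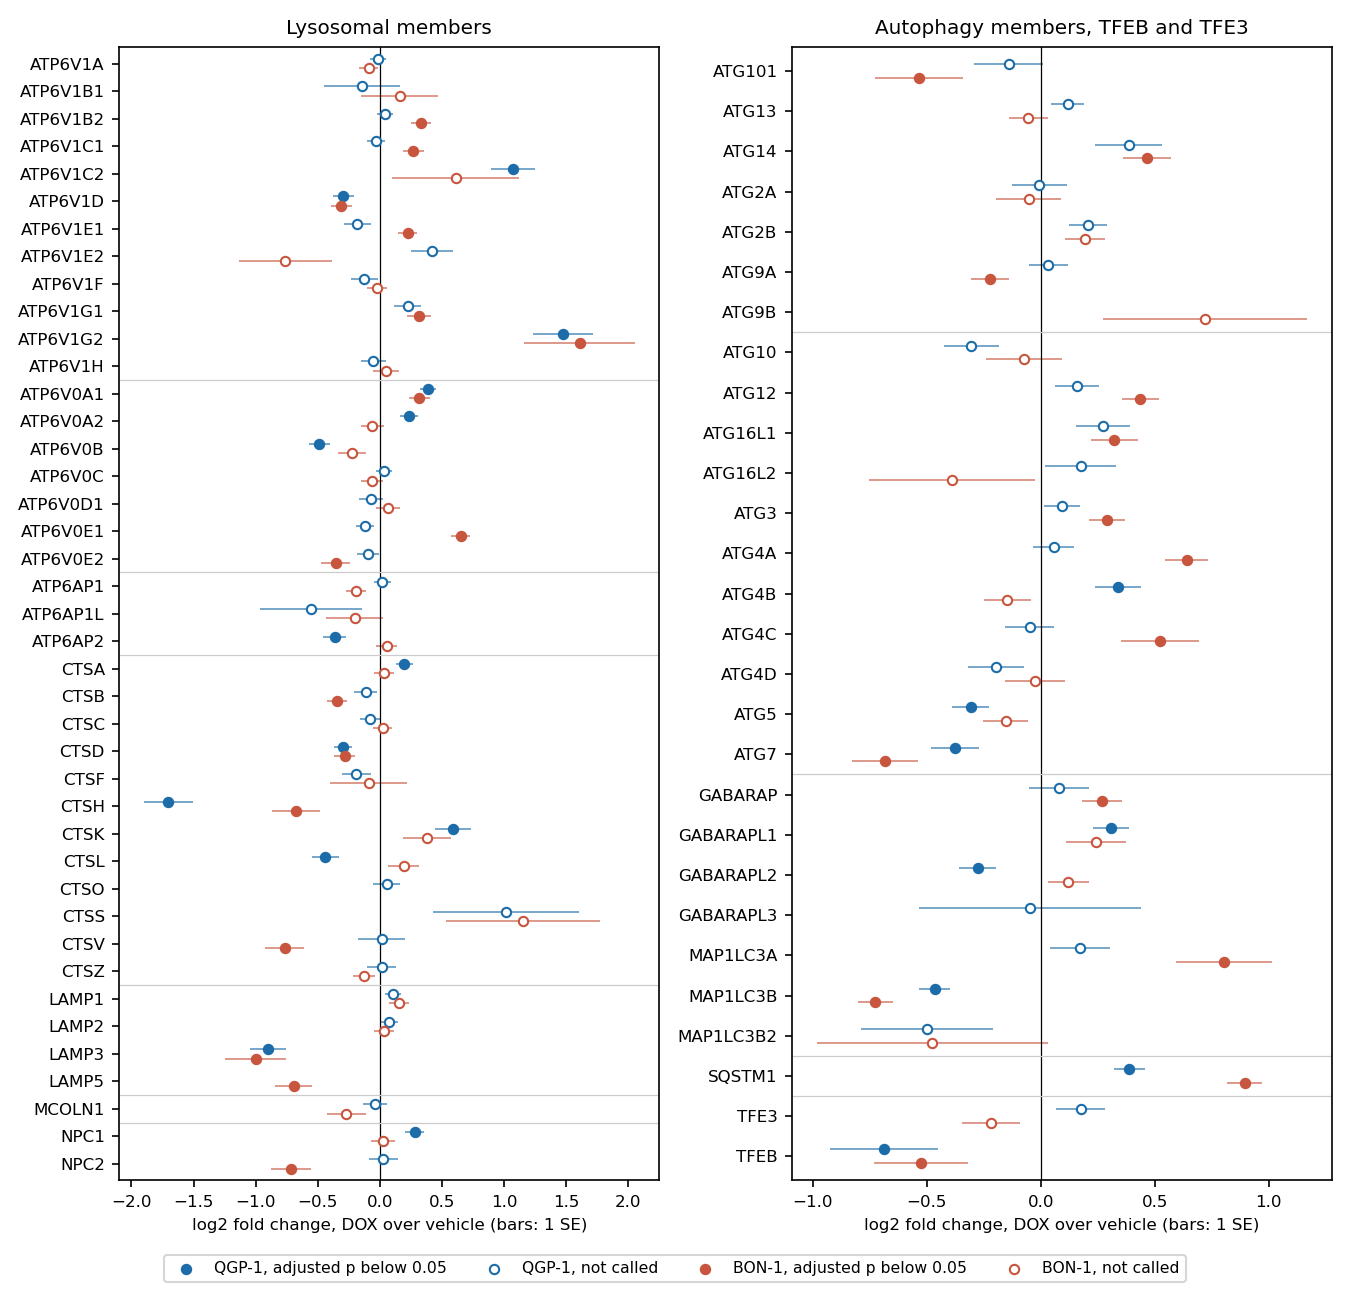
Log2 fold change of each tested member, DOX over vehicle (x axis, bars 1 SE), in QGP-1 (blue) and BON-1 cells (red), with genes ordered by role and grey lines between roles. Filled points passed the edgeR test. ATP6V1A and ATP6V0C lie near 0 in both lines. CTSH, LAMP3 and MAP1LC3B lie below 0 and SQSTM1 and ATP6V1G2 above 0 in both.

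Among the 65 members tested in both, 7 fell in QGP-1 and in BON-1 cells (10.8%, beside 7.23% of 13535 genes): MAP1LC3B, ATG7, LAMP3, ATP6V1D, CTSH, CTSD and TFEB. Another 3 were higher in both (4.62%, beside 6.88%): SQSTM1, ATP6V0A1 and ATP6V1G2. In opposite directions, 0 members were called by edgeR (also 0 at an unadjusted p below 0.05 and by DESeq2), and 24 were called in neither line. CTSD and ATP6V1D also stand in gene lists that the study drew from these same samples, so those calls are not independent evidence.

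The response differed between the lines for 13 of 69 members by the edgeR interaction test on all 12 libraries (18.8%, beside 16.7% of 16598 genes). With differences given as BON-1 minus QGP-1 on the log2 scale, the smallest p among lysosomal members was that of ATP6V0E1 (0.78 ± 0.11 SE, adjusted p = 2.68e-05), and CTSL (0.64 ± 0.17 SE, adjusted p = 0.0124), NPC2 (-0.74 ± 0.20 SE, adjusted p = 0.0132) and CTSH (1.03 ± 0.29 SE, adjusted p = 0.0143) followed. ATG4A (0.59 ± 0.13 SE, adjusted p = 0.00312) had the second smallest p after SQSTM1 among autophagy members. ATP6V1E2, a testis-enriched form of the E subunit, was called here (-1.18 ± 0.35 SE, adjusted p = 0.0212) though in neither line alone. For CTSV (-0.77 ± 0.24 SE, adjusted p = 0.0329) the call held in 5 of 12 fits without 1 library. The number of members called fell to 6 without BON-1 vehicle replicate 3, 7 without QGP-1 DOX replicate 2 or BON-1 DOX replicate 1, and 8 without QGP-1 vehicle replicate 3 or BON-1 vehicle replicate 1. MAP1LC3B, TFEB, LAMP3 and CTSD were not called in this test, with differences of -0.25, 0.17, -0.09 and 0.02.

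**Figure D4:**
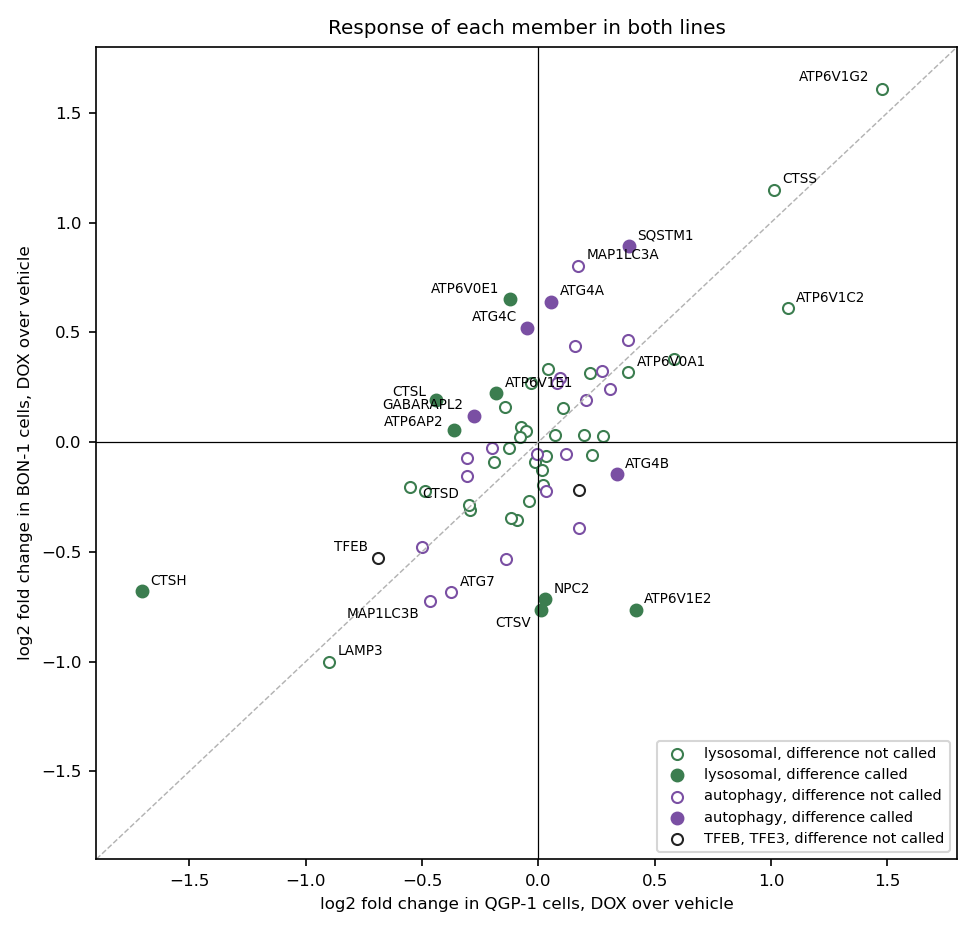
Log2 fold change with DOX in QGP-1 (x axis) against BON-1 cells (y axis) for the 65 members tested in both, coloured by class, with the dashed line marking equal responses. Filled points differed between the lines by the interaction test; ATP6V0E1, ATG4A and ATG4C lie above the dashed line and NPC2, CTSV, ATG4B and ATP6V1E2 below it.

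Before DOX, the lines already differed at most of these genes. With vehicle, 40 of 69 members were lower in BON-1 than in QGP-1 cells (58%) and 20 were higher (29%), beside 37.5% lower and 37.5% higher among 16598 genes. The 7 ATG8 genes tested were each lower in BON-1 cells. GABARAP, for example, had a mean of 865 CPM in QGP-1 and 254 in BON-1 cells (-1.76 ± 0.13 SE on the log2 scale). GABARAPL3 was near the floor, at means of 0.52 and 0.12 CPM with overlap, and passed narrowly (adjusted p = 0.0458, edgeR). Cathepsins divided evenly, with 5 lower and 5 higher of 12. CTSZ (2.25 ± 0.11 SE), CTSV (1.70 ± 0.17 SE), CTSA (1.06 ± 0.08 SE) and CTSB (1.03 ± 0.09 SE) were higher in BON-1 cells, and CTSF (-2.29 ± 0.18 SE) was lower. TFEB was higher in BON-1 cells (1.34 ± 0.22 SE), SQSTM1 likewise (0.55 ± 0.07 SE), and MCOLN1 was lower (-0.99 ± 0.13 SE). CTSO was well detected in QGP-1 cells, with 619 to 902 counts per library, and had at most 2 counts in any BON-1 library, the mirror image of LAMP5.

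Between genes of the same cells, levels were compared per transcript length with the deposited TPM values. In vehicle-treated QGP-1 cells GABARAP was highest at 489 ± 13.7 TPM (mean ± SD, n = 3), above ATP6V1F (111 ± 5.73) and GABARAPL2 (109.7 ± 3.87), which overlapped each other. In BON-1 cells GABARAP again had the highest mean (372 ± 27.0). ATP6V0E1 (281 ± 63.0), ATP6V0C (232 ± 33.1) and ATP6V1F (192 ± 32.8) followed, with ranges over the 3 libraries that overlapped from each to the next. Those libraries differed in their share of non-coding RN7 RNAs (65.6%, 50.9% and 58.8% of TPM), which enters these SDs and ranges. The order of these genes within each library was not tested. TFEB was low, at 0.380 ± 0.0148 TPM in QGP-1 and 2.57 ± 0.841 in BON-1 cells. Other members had lower means still, for example CTSV in QGP-1 (0.340) and CTSF in BON-1 cells (1.25). Over all libraries the RN7 RNAs took 50.9% to 80.3% of all TPM, so TPM levels of single genes are not compared between treatments or lines.

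Members at the floor could not be tested. MAP1LC3C and ATP6V1G3 had no count in any library, which allows at most 0.0594 to 0.188 CPM per library if 3 counts are taken as the limit. ATP6V0A4 had at most 12 counts in a library and ATP6V0D2 at most 8. LAMP5 and ATG9B were untested in QGP-1 cells, and CTSO and GABARAPL3 in BON-1 cells. These limits cover counting error alone.

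Beyond the 73 genes, 94 other lysosomal and autophagy genes were counted. In QGP-1 cells 15 of 93 tested were lower (16.1%) and 16 higher (17.2%), and in BON-1 cells 19 of 94 were lower (20.2%) and 21 higher (22.3%). These shares and those that follow stand beside 17.7% lower and 17.3% higher of all genes in QGP-1 and 18.3% and 17% in BON-1 cells, and no difference between the lists or lines was tested. Of 29 lysosomal hydrolases, 4 were lower (13.8%) and 2 higher (6.9%) in QGP-1 cells, and 10 lower (34.5%) and 3 higher (10.3%) in BON-1 cells. Among them NAGLU fell in both lines (log2 fold change -0.76 in QGP-1 and -0.97 in BON-1 cells). HGSNAT, which like NAGLU degrades heparan sulfate, rose in both (0.27 and 0.61). Of 6 sorting genes, 4 rose and 1 fell in QGP-1 cells, and 2 rose and 1 fell in BON-1 cells. GNPTAB, which makes the mannose 6-phosphate tag of lysosomal enzymes, rose in both lines (0.61 and 0.41), while GNPTG, the other subunit of the same enzyme, fell in both (-0.52 and -0.50). By DESeq2 no sorting gene was lower in BON-1 cells, and 9 hydrolases were.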

How the data were processed

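RNA was measured in 12 libraries of 2 cell lines, prepared by the authors with a stranded TruSeq mRNA kit from cells grown in triplicate. Per the labels and the study's methods, the authors aligned reads to the human genome (GRCh38) with STAR and deposited raw counts per gene and TPM values for each line. The counting program and its strand setting are not given in the sources used here. The deposited counts were tested as they stand. The deposited TPM values keep a nearly constant ratio to the counts of a gene within a line (median spread 0.000343 log2 units in QGP-1 and 0.000415 in BON-1 cells), and 0 of the 73 genes were missing from them. Apart from an alternative for the class medians, TPM values were used only to compare genes with each other, since non-coding RNAs take most of their total.

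The labels give the groups, and there were 0 columns of other samples. For each line, counts were filtered with filterByExpr, scaled by TMM and tested with edgeR 4.0.16 (glmQLFit and glmQLFTest, R 4.3.3), DOX against vehicle, with Benjamini-Hochberg adjustment over all genes tested and a threshold of 0.05. The SE is the log2 fold change divided by the square root of F. A fit of all 12 libraries gave the interaction of line and DOX and the difference between the lines with vehicle. CPM are counts divided by the TMM-scaled library size and set to a common scale. The scripts were tested on simulated counts. No replicates were copies of each other: their counts differed by 5.92 to 29.7 chi-square units per gene.

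The members, their classes and the lists of other genes were chosen with earlier results of these data known. Values per library are given for 12 fixed genes (TFEB, TFE3, MCOLN1, SQSTM1, LAMP1, LAMP2, CTSD, CTSB, NPC1, NPC2, MAP1LC3B and GABARAP), for the 4 lysosomal and 4 autophagy members with the smallest p in each line, and for the 4 members with the smallest interaction p. MAP1LC3A was added after its values were seen. Other called members are named with their fold change. Alternatives were DESeq2 1.42.0, other scalings, other filters, a replicate block, 1 joint fit, a minimum fold change and leaving out each library. The class medians were also taken from TPM values.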

Additional observations from a re-analysis of the deposited data

Results flagged for a closer look

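The response to DOX differed between the lines, by the edgeR interaction test, for 13 members, each given as BON-1 minus QGP-1 on the log2 scale. The response was higher in BON-1 cells for ATP6V0E1 (0.78), CTSH (1.03), CTSL (0.64), ATG4A (0.59), ATG4C (0.58), SQSTM1 (0.52), ATP6AP2 (0.43), ATP6V1E1 (0.41) and GABARAPL2 (0.41). It was lower in BON-1 cells for ATP6V1E2 (-1.18), CTSV (-0.77), NPC2 (-0.74) and ATG4B (-0.48). CTSH fell in both lines, so its positive value means a smaller fall in BON-1 cells, and SQSTM1 rose in both. Each flag rests on a test of the difference itself. ATP6V0E1, ATG4A, CTSL and SQSTM1 kept the call in 12 of 12 fits that left out 1 library, CTSH and NPC2 in 11, ATG4B in 9, ATP6V1E2 in 8, ATP6AP2 in 6, CTSV and GABARAPL2 in 5, ATG4C in 4 and ATP6V1E1 in 3. Line, medium and depth cannot be told apart in these differences.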

How the results depend on the processing

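Among the called members given with values per library, fold changes kept their direction under DESeq2, library-size and upper-quartile scaling, both filters, the replicate block and 1 fit of both lines. Sign changes came from members that were not called. In QGP-1 cells CTSV (-0.015) and NPC2 (-0.0014) turned negative under upper-quartile scaling. In BON-1 cells LAMP2 (-0.015) and NPC1 (-0.018) did so under library-size scaling. Leaving out 1 library moved these fold changes from -0.077 to 0.15 (CTSV), -0.025 to 0.080 (NPC2), -0.14 to 0.22 (GABARAP) and -0.12 to 0.047 (MCOLN1) in QGP-1 cells, and from -0.058 to 0.093 (LAMP2) and -0.043 to 0.075 (NPC1) in BON-1 cells.

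With an absolute log2 fold change above 0.5 required as well, QGP-1 cells kept 3 members lower and 3 higher (lysosomal 2 and 3, autophagy 0 and 0). BON-1 cells kept 9 lower and 6 higher, of which 5 and 2 were lysosomal. The BON-1 autophagy members kept were 4 higher, and ATG101 (-0.53), ATG7 (-0.68) and MAP1LC3B (-0.73) lower. Fewer genes can pass this rule by its construction. DESeq2 called 2 autophagy members lower in BON-1 cells in place of 4. The relative medians moved with TPM to 0.14 (lysosomal) and 0.11 (autophagy) in QGP-1 cells and to 0.082 (autophagy) in BON-1 cells, where TPM also shifted the median of all genes by 0.46 and -0.24. In BON-1 cells the autophagy median was 0.062 without a filter, 0.16 with at least 10 counts in every library and 0.057 with both lines in 1 fit, and the lysosomal median was -0.037 with at least 10 counts. The cause of these shifts was not tested.

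Leaving out 1 library gave 9 to 14 members lower and 7 to 14 higher in QGP-1 cells (autophagy higher 2 to 6), 10 to 15 lower and 12 to 15 higher in BON-1 cells, and 6 to 13 members that differed between the lines. The autophagy median ran from 0.022 to 0.13 in QGP-1 and from 0.082 to 0.18 in BON-1 cells. In QGP-1 cells calls were lost without vehicle replicate 2 (ATG4B, ATP6V0A2, CTSA, TFEB), vehicle replicate 3 (ATG4B, CTSA, GABARAPL2, TFEB), DOX replicate 1 (TFEB), DOX replicate 2 (ATG4B, ATP6V0A2, ATP6V1D, CTSA, GABARAPL2, TFEB) and DOX replicate 3 (ATP6V0A2, CTSA). In BON-1 cells they were lost without vehicle replicate 1 (ATG101, ATG16L1, ATG4C, ATG9A, ATP6V0E2, ATP6V1E1, ATP6V1G1, CTSD, TFEB), vehicle replicate 2 (ATG101, ATG16L1, ATP6V1C1, ATP6V1E1, CTSH, GABARAP, TFEB), vehicle replicate 3 (ATG101, ATG4C, ATP6V0A1, ATP6V1E1, GABARAP), DOX replicate 1 (ATG16L1, ATG9A, ATP6V1E1, ATP6V1G1, TFEB), DOX replicate 2 (ATG16L1) and DOX replicate 3 (ATG101, ATG4C, ATP6V1C1, ATP6V1E1, GABARAP, TFEB). These smaller fits also have fewer samples. CTSA in QGP-1 cells and ATG101, ATG9A, ATP6V1E1, ATP6V1G1, GABARAP and TFEB in BON-1 cells lost the call under at least 1 other scaling, filter, tool or joint fit.

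Whether replicate numbers pair the libraries was left undecided. The deviations of same-numbered vehicle and DOX libraries correlated at -0.097, 0.16 and 0.12 in QGP-1 and -0.073, -0.042 and 0.11 in BON-1 cells. Replicate 2 of QGP-1 and replicate 3 of BON-1 cells correlated best with their own number, and the others did not. With 3 pairs per line these values cannot exclude pairing. With the replicate block, 12 members were lower and 10 higher in QGP-1 and 14 and 16 in BON-1 cells, and 12 differed between the lines (ATG4C lost its call). Fold changes of members with few counts are less precise, such as CTSS (SE 0.62), ATP6V1C2 (0.51), ATP6V1G2 (0.44) and LAMP3 (0.24) in BON-1 cells.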

Other observations

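Further lists cover nutrient sensing on the lysosome, cargo receptors, vesicle fusion and the start of autophagy, and their shares stand beside 17.7% lower and 17.3% higher of all genes in QGP-1 and 18.3% and 17% in BON-1 cells. The LAMTOR genes encode the scaffold that holds mTORC1 on the lysosome, and LAMTOR1 (log2 fold change -0.39 in QGP-1 and -0.31 in BON-1 cells), LAMTOR2 (-0.30 and -0.51) and LAMTOR3 (-0.93 and -0.31) fell in both lines by edgeR's test. LAMTOR4 fell in BON-1 cells (-0.85), while LAMTOR5 rose there (0.36). FNIP1 (0.33 and 0.23) and FNIP2 (0.41 and 0.44), partners of folliculin in the same pathway, rose in both lines. Of the 13 nutrient-sensing genes, 3 were lower and 3 higher in QGP-1 cells (23.1% each), and 4 lower and 4 higher in BON-1 cells (30.8% each, 3 lower by DESeq2).

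Among 9 further autophagy receptors, 3 fell (33.3%) and 2 rose (22.2%) in QGP-1 cells, and 0 fell and 4 rose (44.4%) in BON-1 cells by edgeR (0 and 5 at an unadjusted p below 0.05, 0 and 4 by DESeq2). CALCOCO2 (NDP52), a receptor for bacteria and mitochondria, fell in QGP-1 cells (-0.27) and rose in BON-1 cells (0.28), and the difference of 0.56 ± 0.12 SE passed the interaction test (adjusted p = 0.00276, edgeR). BNIP3, a mitophagy receptor of the outer mitochondrial membrane, fell in QGP-1 cells (-0.51) and differed between the lines by 0.71 ± 0.13 SE (adjusted p = 0.000448, edgeR). VAMP8, which takes part in the fusion of autophagosomes with lysosomes, fell in both lines (-0.88 and -0.22, the latter not called by DESeq2), whereas EPG5, a tether for the same step, rose in both (0.29 and 0.45). Of 12 fusion genes, 1 was lower (8.33%) and 2 higher (16.7%) in QGP-1 cells, and 1 lower (8.33%) and 3 higher (25%) in BON-1 cells. Of 14 genes of initiation and nucleation, 1 was lower (7.14%) and 0 higher in QGP-1 cells by edgeR (2 and 0 at an unadjusted p below 0.05, 1 and 0 by DESeq2) and 1 was lower (7.14%) and 2 higher (14.3%) in BON-1 cells. No difference between these lists and other genes was tested.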
